A study of Mus musculus with 2 samples.

Results

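Transporters of amino acids, and their close relatives that carry peptides, amines and creatine, were followed in CMT93 cells given lipopolysaccharide (LPS) and in control CMT93 cells. Genes were taken by name from the solute carrier families SLC1, SLC3, SLC6, SLC7, SLC15, SLC36, SLC38 and SLC43, with the brightest probe standing for each gene. The names matched 66 of 34648 gene names on the arrays, over 85 probes. CMT93 is an established mouse line of large-bowel carcinoma, with rectum as its labelled tissue and C57BL/ICRF as its strain. The labelled age of 19 months was taken as that of the source animal. One Agilent array held cells given LPS at 3 µg/mL for 24 h, and the other held control cells, both grown in DMEM. The labels give the same treatment wording for both cultures, and it was taken to describe the LPS culture alone, as the sample titles name them. The comparison addresses which transcripts differ in level after LPS. With 1 array per group there was no test between the groups, and precision is limited by the number of arrays. Each group is 1 RNA sample of 1 line, so a difference between cultures cannot be told apart from one due to LPS.

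Cells import amino acids through carriers that differ in substrate, ion coupling and membrane. Light chains of SLC7 reach the surface by pairing with a heavy chain of SLC3, and exchange one amino acid for another. SLC1, SLC6 and SLC38 carriers use the sodium gradient, SLC15 and some SLC36 carriers use protons, and SLC43 carriers work without either. In the gut, apical carriers take up amino acids and peptides from the lumen, and basolateral ones, among them the product of Slc43a2, exchange them with the blood. The cystine carrier encoded by Slc7a11 feeds glutathione synthesis, and its gene is a known target of the transcription factors ATF4 and NRF2.

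Spots well above background made up 54.7% of those on the LPS array and 55.8% of those on the control array, control spots aside, and no spot was saturated. The 75th percentile of processed intensity, to which each array was scaled, was 631 on the LPS array and 651 on the control array. Of 11 markers of colonic epithelium 10 were above background on both arrays, and all 10 had log2 differences below 0, from -0.72 for Vil1 to -0.01 for Cdh1. Cdx2, a transcription factor gene that defines intestinal epithelium, was above background on neither array. Among 7 macrophage markers, Lyz2, Tyrobp and Laptm5 were above background on neither array. Mpeg1 passed the limit with LPS alone, at least 1.52-fold higher. Ptprc passed it in the control alone, with 14.7 on the LPS array and 52.9 on the control array, at least 3.03-fold lower. Csf1r and Itgam were measured on both, at 0.06 and 0.09, with 1575 and 7516 on the control array. Measured on both arrays were 2 of 5 lymphocyte markers, 2 of 4 endothelial markers and 2 of 5 fibroblast markers. Of the fibroblast markers, Col1a1 and Col1a2 stood at 0.33 and 0.91. Their intensities were low, at 129 and 110 on the LPS array and 106 and 60.7 on the control array. Pdgfra passed the limit in the control alone, at least 1.96-fold lower. The part of these markers in the differences below was not tested. In RNA of a whole culture, fewer cells of a kind and less RNA per cell cannot be told apart.

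The transporters that stood out were read through 1 probe each, and parts of those probes are shown because the differences rest on them alone. Each line gives the last 30 of the 60 bases, 5′ to 3′, with the letters AATAAA, the common polyadenylation signal, in capitals where they occur. Positions are those of the whole probe on mm9. The Slc43a2 probe lies at chr11:75387219-75387278 (plus strand), the Slc7a11 probe at chr3:50169700-50169759 (minus), the Slc7a3 probe at chrX:98274644-98274703 (minus) and the Slc6a13 probe at chr6:121287597-121287656 (plus). Whether a probe lies in coding sequence was not analysed here. 
Slc43a2: tatgaagcAATAAAtccatttccctgttgg
Slc7a11: acttagctttgcttacattcttctgcaagc
Slc7a3: gaaatgatggctatgtctttgctgtttctc
Slc6a13: taacatcccattgaggcagcttgggaagcc
The Slc43a2 stretch alone holds AATAAA, and the full probes ranged in GC content from 31.7% for Slc43a2 to 53.3% for Slc6a13.

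Of the 66 genes, 32 (48.5%) were measured, meaning well above background on both arrays, against 58.7% of all gene names. Slc1a6 passed this limit with LPS alone, Slc38a11 in the control alone, and 32 genes on neither array. Among the 32 measured genes, 2 were higher on the LPS array by 2-fold or more and none was lower by as much. Over all 20328 measured genes, 1.46% were higher and 0.571% lower by this margin. At 1.5-fold, 2 transporters were higher and 2 were lower, against 3.59% and 2.68% of all measured genes, and 28 transporters differed by less. The median log2 difference of the 32, LPS minus control, was 0.00, and that of all measured genes was -0.02. For 18 transporters the value was above 0 and for 14 below. The error after each ± below is the median SD between repeated spots of probes in the same of 5 bins of brightness. It is an error of the slide that holds nothing of culture-to-culture spread. The dimmest bin is wide, from -4.99 to -1.24 on the scaled log2 axis, and every gene in it was given the same 0.15. Whether the error is larger at the dim end of that bin was not tested. For 8 of the 32 genes the difference was smaller than this SD.

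**Figure D1:**
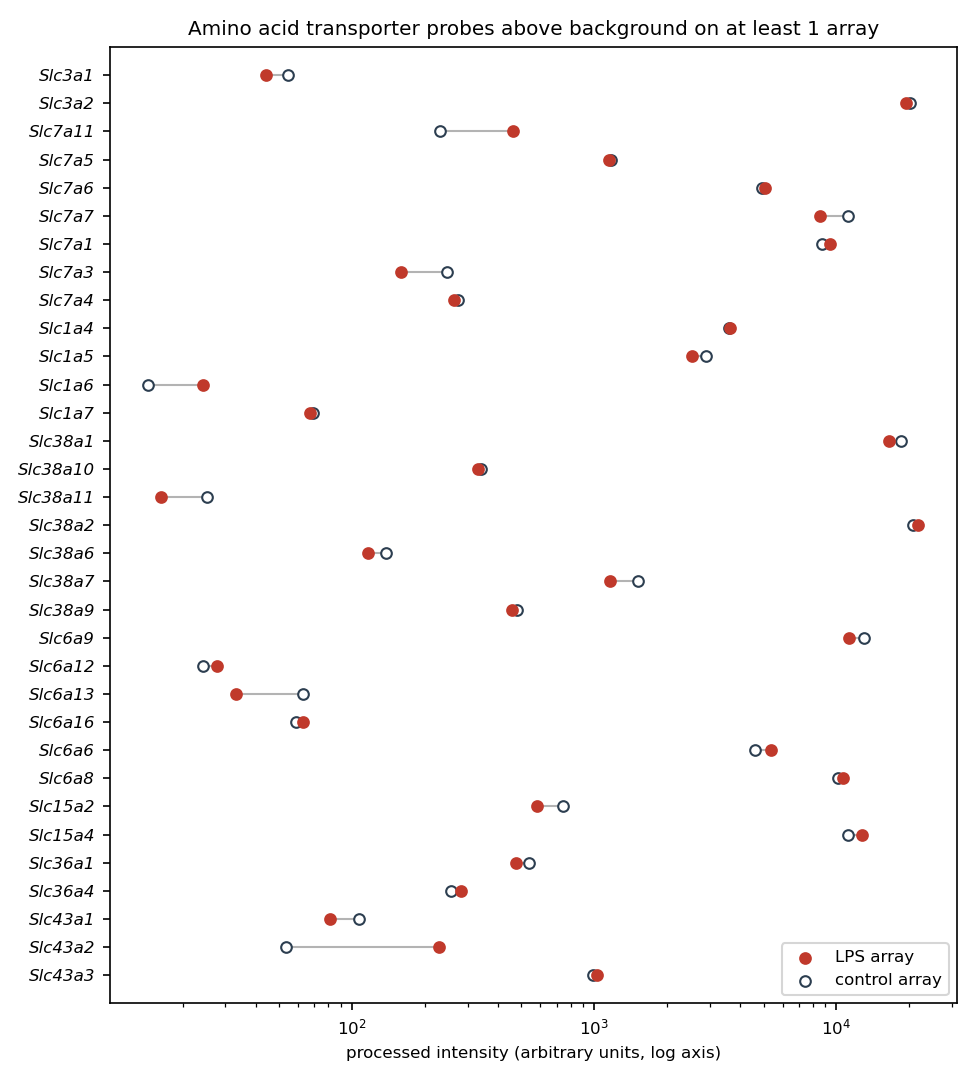
Processed intensity (log axis, arbitrary units) of the brightest probe of each transporter gene reported here that was above background on at least 1 array, with filled points for the LPS array and open points for the control array. Slc43a2 stood at 229 on the LPS array and 53.6 on the control array, the widest gap, and most pairs lie almost on top of each other.

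Slc43a2, which encodes a carrier that lets branched-chain amino acids, phenylalanine and methionine cross the basolateral membrane in both directions, differed most. Its processed intensity was 229 on the LPS array and 53.6 on the control array. This is 4.39-fold higher, a log2 difference of 2.14 ± 0.15, and 1.37 with normexp background correction. Its relatives in SLC43 were within 1.5-fold. Slc43a1, a carrier of the same kind of substrates, had 81.1 on the LPS array and 106 on the control array, at -0.35 ± 0.15. Slc43a3, whose product carries purine bases, had 1023 and 986 on the LPS and control arrays, at 0.10 ± 0.05. The probes of Slc43a1 and Slc43a3 lie 94.4 kb apart on chromosome 2, and that of Slc43a2 on chromosome 11.

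Slc7a11 encodes the light chain of the exchanger that brings in cystine for glutamate. Its intensity was 461 on the LPS array and 230.2 on the control array, 2.06-fold higher at 1.05 ± 0.06. The distance to 2-fold was less than the spot SD, and with normexp the log2 difference was 0.86, or under 2-fold. The other measured light chains stayed within 1.5-fold. Slc7a5, the large neutral amino acid exchanger of growing cells, had 1152 on the LPS array and 1169 on the control array, at 0.02 ± 0.05, and its dimmer probe gave -0.21. Slc7a6, a light chain that exchanges cationic for neutral amino acids, was at 0.09 ± 0.04. Slc7a7, its counterpart in the basolateral membrane of gut and kidney, had 8584 on the LPS array and 11172 on the control array, at -0.34 ± 0.03.

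The heavy chain gene Slc3a2, the partner of these light chains, had 19430 on the LPS array and 20033 on the control array, and after scaling stood at 0.00 ± 0.03. Slc3a1, the heavy chain of the apical carrier for cystine and cationic amino acids, was at -0.25 ± 0.15, and its light chain partner Slc7a9 was above background on neither array. Slc7a8, Slc7a10, Slc7a12, Slc7a13 and Slc7a15 were likewise above background on neither array, so 4 of 10 light chain genes were measured.

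**Figure D2:**
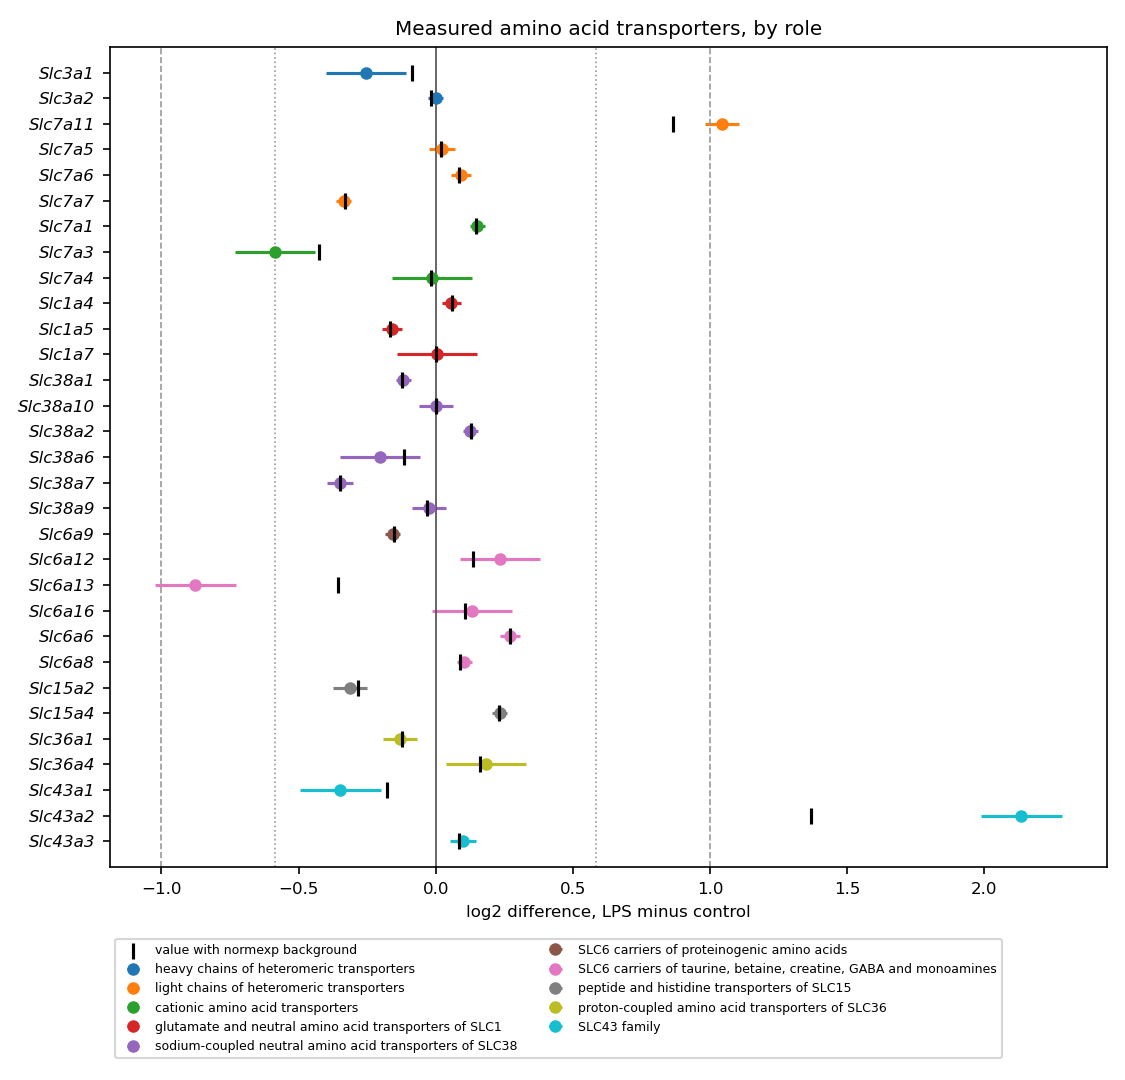
Log2 difference, LPS minus control, of the transporters reported by name that were measured on both arrays, grouped by role. Bars give the spot SD of the brightness bin of each gene, and black ticks the value with normexp background correction. Dotted and dashed lines mark 1.5-fold and 2-fold. Slc43a2 and Slc7a11 lie beyond the dashed line on the right, and no gene lies beyond it on the left.

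The SLC7 genes grouped here with the cationic amino acid carriers, which work without a heavy chain, were split. Slc7a1, the widespread arginine and lysine carrier, had 9379 on the LPS array and 8707 on the control array, at 0.15 ± 0.03. Slc7a3, a related carrier best known from brain, had 159 on the LPS array and 246 on the control array. It was 1.5-fold lower, at -0.58 ± 0.15, right at the limit used here. Slc7a4 was at -0.01 ± 0.15 through a probe with 264 on the LPS array and 275 on the control array. Its second probe, with 3.83 and 3.66, was above background on neither array. Slc7a2 and Slc7a14 were above background on neither array.

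Among SLC1 genes the neutral carriers were measured and most glutamate carriers were not. Slc1a5, the main glutamine carrier of many tumour lines, had 2523 on the LPS array and 2906 on the control array, at -0.16 ± 0.04, and its second probe gave -0.27. Slc1a4, a carrier of alanine, serine and cysteine, was at 0.06 ± 0.04. The glutamate carrier Slc1a7 was at 0.00 ± 0.15. Slc1a6, another glutamate carrier, had 24.2 on the LPS array and 14.4, a dim signal, on the control array, and was at least 1.57-fold higher. This bound sets the bright array against the dim probe's own signal or the lowest signal well above background, whichever is higher. Slc1a1, Slc1a2 and Slc1a3 were above background on neither array. For Slc1a1 and Slc7a8 this rests on a probe printed 10 times, with 3 spots of the pair left out as outliers.

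Of 11 SLC38 genes 6 were measured, all within 1.5-fold, with a median of -0.07. Slc38a2, a sodium-coupled carrier of small neutral amino acids that is induced in starved cells, had 21805 on the LPS array and 20623 on the control array, at 0.13 ± 0.03. Slc38a1, a relative that carries glutamine, had 16512 and 18482 on the LPS and control arrays, at -0.12 ± 0.03, with 3 probes between -0.12 and -0.04. Their probes lie 112 kb apart on chromosome 15, and Slc38a4, 307 kb further along, was above background on neither array. The lowest of the 6 was Slc38a7, whose product moves glutamine out of lysosomes, with 1157 on the LPS array and 1521 on the control array, at -0.35 ± 0.05. Slc38a9, the lysosomal carrier that reports arginine to the kinase complex mTORC1, was at -0.03 ± 0.06, with its 3 probes between -0.39 and -0.03. Slc38a6 and Slc38a10 were at -0.20 ± 0.15 and 0.00 ± 0.06. Slc38a11 had 16.4, a dim signal, on the LPS array and 25.2 on the control array, and was at least 1.44-fold lower. Its other probe was above background on neither array. Slc38a3, Slc38a4, Slc38a5 and Slc38a8 were above background on neither array.

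Of 9 SLC6 genes for carriers of protein-forming amino acids, 1 was measured. Slc6a9, the glycine carrier, had 11305 on the LPS array and 12993 on the control array, at -0.16 ± 0.03. Its second probe, which overlaps the first along the genome, gave -0.09. Slc6a14 and Slc6a19, the broad and the neutral amino acid carriers of gut epithelium, were above background on neither array, and so were Slc6a5, Slc6a7, Slc6a15, Slc6a17, Slc6a18 and Slc6a20b. Slc6a20a, which the naming rule leaves out, was measured at 0.07 ± 0.15. Tmem27, which encodes a partner protein that brings such carriers to the apical membrane, was also above background on neither array.

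Most of the other SLC6 genes encode carriers of taurine, betaine, creatine, GABA or monoamines, and 6 of the 10 in this group were measured. Slc6a13, a carrier of GABA and taurine best known from liver and kidney, had 33.2 on the LPS array and 62.9 on the control array. It was 1.84-fold lower, at -0.88 ± 0.15, and at -0.36 with normexp. Slc6a12, the betaine carrier gene whose probe lies 27.9 kb away on chromosome 6, was at 0.23 ± 0.15, the opposite sign. The taurine carrier Slc6a6 had 5377 on the LPS array and 4597 on the control array, at 0.27 ± 0.04, and the creatine carrier Slc6a8 had 10609 and 10176 on the LPS and control arrays, at 0.10 ± 0.03. Slc6a16 had 62.6 on the LPS array and 58.9 on the control array, at 0.13 ± 0.15. The monoamine carriers Slc6a2, Slc6a3 and Slc6a4 and the GABA carrier Slc6a11 were above background on neither array.

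Among peptide carriers, Slc15a4, a lysosomal carrier of histidine and peptides that also takes part in Toll-like receptor signalling of immune cells, had 12692 on the LPS array and 11133 on the control array, at 0.23 ± 0.03. Slc15a2, a high-affinity peptide carrier, had 581 on the LPS array and 744 on the control array, at -0.31 ± 0.06. Slc15a1, the peptide carrier of the small-bowel brush border, and Slc15a3 and Slc15a5 were above background on neither array. Of the SLC36 carriers, Slc36a1 was at -0.13 ± 0.06 and its dimmer probe at 0.17, and Slc36a4 was at 0.18 ± 0.15 and its dimmer probe at 0.40. Slc36a2 and Slc36a3 were above background on neither array. Of 7 transporters with more than 1 measured probe, 5 had 1 sign over their probes, and the exceptions were Slc36a1 and Slc7a5.

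**Figure D3:**
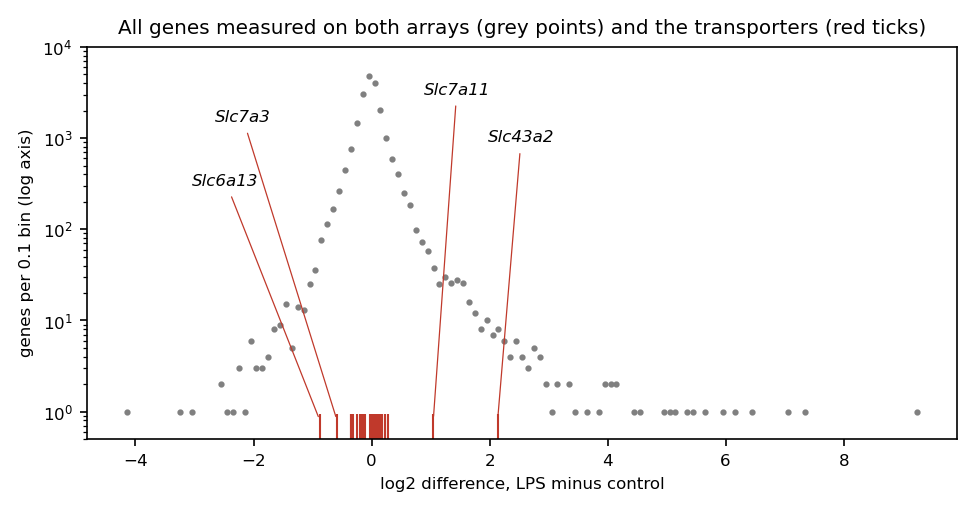
Number of genes per 0.1 bin of log2 difference, LPS minus control, on a log axis, for all 20328 genes measured on both arrays (grey points), with the 32 transporters as red ticks along the bottom. The transporters cluster around 0, with Slc43a2 at 2.14 and Slc7a11 at 1.05 to the right and Slc6a13 at -0.88 and Slc7a3 at -0.58 to the left.

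Genes that sense or use amino acids gave a frame for these values. Of 30 genes of the amino acid response and ATF4 targets, all measured, none was at least 2-fold apart. At 1.5-fold, 2 were higher and 3 lower, against 3.59% and 2.68% of all measured genes. Their median was -0.20, and 21 (70.0%) lay below 0, against 55.5% of all measured genes. Cebpb, a transcription factor gene also induced in inflammation, had 21210 on the LPS array and 11707 on the control array, at 0.90 ± 0.03, and Ddit4, which encodes an inhibitor of mTORC1, was at 0.65 ± 0.03. At the low end, Pycr1, a proline synthesis gene, was at -0.94 ± 0.06, the pseudokinase gene Trib3 at -0.87 ± 0.04 and the hormone gene Fgf21 at -0.76 ± 0.15. Fgf21 was dim, with 18.9 on the LPS array and 32.8 on the control array. With normexp, 4 genes of this list were at least 1.5-fold apart, against 5 in the main setting. Atf4 itself was at -0.15 ± 0.03 and the asparagine synthetase gene Asns at -0.26 ± 0.03. Among the brighter genes of this list the median was -0.07.

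Of 20 aminoacyl-tRNA synthetase genes, which charge tRNAs with amino acids, none reached 1.5-fold, and the median was -0.12. Here too 14 (70.0%) lay below 0, against 55.5% of all measured genes. Yars and Vars were highest at 0.45 ± 0.15 and 0.26 ± 0.04, and Gars and Cars lowest at -0.26 and -0.24. None of 29 genes of amino acid sensing by mTORC1 reached 1.5-fold either, with a median of -0.04. Wdr59 and Rheb were highest at 0.37 ± 0.06 and 0.26 ± 0.03, and Sesn3 and Tsc2 lowest at -0.55 ± 0.04 and -0.44 ± 0.15.

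For glutamine, cystine and glutathione use, 18 of 20 genes were measured, and the median was -0.01. At 1.5-fold, 1 was higher and 1 lower, against 3.59% and 2.68% of all measured genes. Ggt7 and Ggt6, of the family that splits glutathione, were highest at 0.59 ± 0.06 and 0.50 ± 0.15. The brush-border peptidase gene Anpep was lowest at -0.85 ± 0.06. Gclc encodes the catalytic subunit of the first enzyme of glutathione synthesis, which uses cysteine. It had 1483 on the LPS array and 2104 on the control array, at -0.46 ± 0.05. Gclm, the gene of the regulatory subunit, was at -0.09 ± 0.06. Cdo1, with 13.0 on the LPS array and 18.9 on the control array, passed the background limit in the control alone, a bound of at least 1.08-fold lower.

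Of 26 amino acid carriers of other families and partner proteins, 23 were measured. At 1.5-fold, none was higher and 3 were lower, against 3.59% and 2.68% of all measured genes. The median was 0.08, or 0.14 with cyclic loess and 0.20 among brighter genes. Slc16a10, a carrier of aromatic amino acids in basolateral membranes, had 27.9 on the LPS array and 63.3 on the control array, 2.20-fold lower at -1.14 ± 0.15. Its signal was dim, with the lowest signal well above background at 16.9 on the LPS array and 15.9 on the control array. With normexp, 1 gene of this list was at least 1.5-fold apart, against 3 in the main setting. The vesicular glutamate carrier Slc17a8 was at -0.92 ± 0.15 and the lysosomal cystine exporter Ctns at -0.63 ± 0.03. The mitochondrial aspartate and glutamate carriers Slc25a12 and Slc25a18 were highest at 0.56 ± 0.05 and 0.56 ± 0.15. Slc43a2 and Slc16a10, both known as basolateral carriers in the gut, thus had opposite signs.

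**Figure D4:**
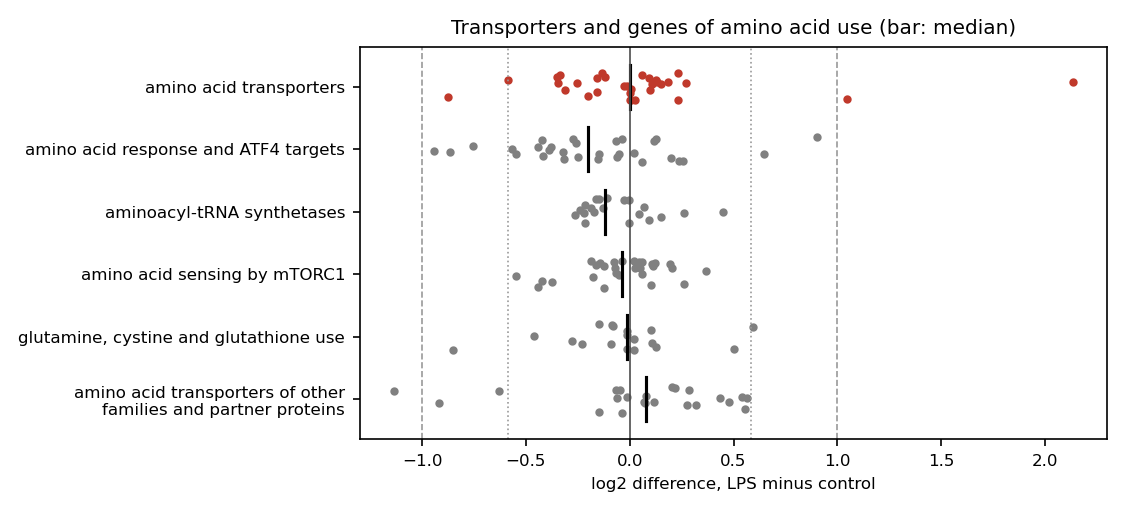
Log2 difference, LPS minus control, of each measured gene in the transporter families (red) and in 5 lists of genes that sense, charge or use amino acids (grey), with a bar at each median. The medians run from -0.20 for the amino acid response and ATF4 targets to 0.08 for carriers of other families, and vertical position within a row carries no value.

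The promoter of Slc7a11 is shown because the gene was one of the 2 transporters at least 2-fold higher and is a known ATF4 target. The window is the 250 bases before the RefSeq start of Slc7a11, at chr3:50443614-50443863 on GRCm38.p6 (minus strand), written 5′ to 3′ on the strand of the gene, with matches to the core of the amino acid response element in capitals.
Slc7a11 promoter: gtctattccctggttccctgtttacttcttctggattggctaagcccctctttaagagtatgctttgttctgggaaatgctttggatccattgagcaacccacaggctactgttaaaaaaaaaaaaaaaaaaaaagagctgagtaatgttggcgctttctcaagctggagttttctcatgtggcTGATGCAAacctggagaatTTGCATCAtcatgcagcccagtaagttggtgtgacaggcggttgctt
The core searched was TGATGNAA, on both strands. It occurs in the window on each strand, with first bases 66 and 47 bases before the start. Over 32851 promoter windows of this length 3.45% hold it, and of the 47 transporter genes with a RefSeq window it is in those of 2, Slc7a11 and Slc7a7, which stood at 1.05 and -0.34. The core of the antioxidant response element, TGACNNNGC, is in 10.2% of all windows and in windows of 8 of the 47 genes, among them Slc6a13 and not Slc7a11 or Slc43a2. One form of the kappa-B element, also searched on both strands, is in 1.41% of all windows and in windows of 2 of the 47 genes, the neighbours Slc6a12 and Slc6a13, which stood at 0.23 and -0.88. The shares above are of windows, and the 47 genes have 68 windows. Of these, 3 hold the amino acid response core, 9 the antioxidant response core and 2 the kappa-B form. The windows of Slc43a2 held none of these motifs. These are matches of letters only, and binding was not measured.

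**Figure D5:**
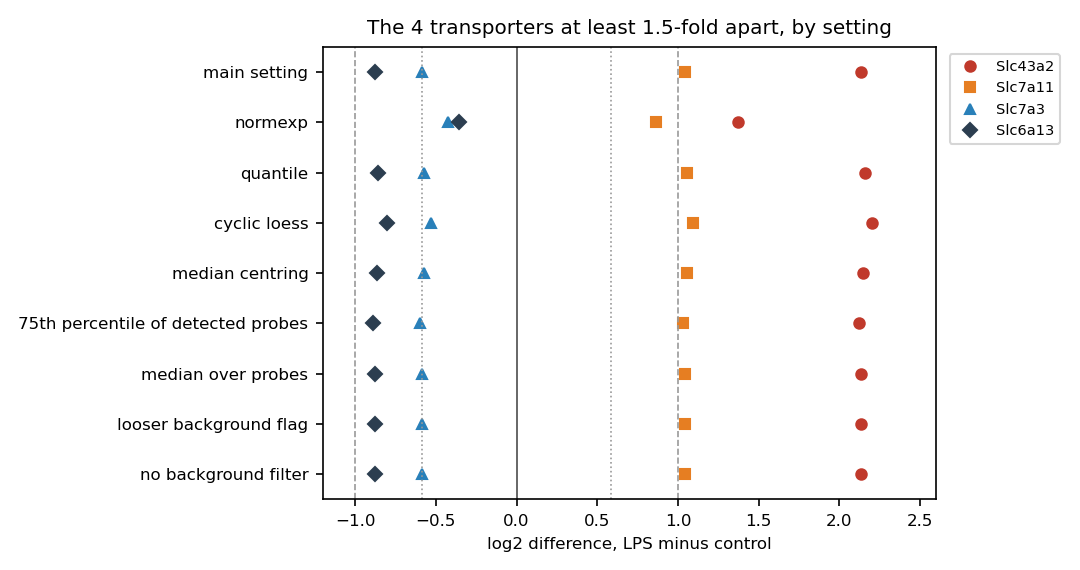
Log2 difference, LPS minus control, of the 4 transporters at least 1.5-fold apart under the main setting and under 8 alternatives in which they were measured. Under normexp each of the 4 lies closer to 0, with Slc43a2 at 1.37, Slc7a11 at 0.86, Slc7a3 at -0.42 and Slc6a13 at -0.36. Dotted and dashed lines mark 1.5-fold and 2-fold.

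With normexp, Slc43a2 was the single transporter at least 2-fold apart, and neither Slc6a13 nor Slc7a3 reached 1.5-fold. No sign turned among these 4 genes under any of the alternatives in which they were measured.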

How the data were processed

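Total RNA of 1 LPS culture and 1 control culture was measured on 2 one-colour (Cy3) arrays. The authors deposited scanner output. Per the file headers, version 10.10.1.1 of Agilent's extraction software had already removed background and spatial trend from the processed intensity of each spot, and probes are placed on mm9. From these, control spots and 223 spots flagged as outliers were left out. Intensities were put on the log2 scale and scaled by each array's own 75th percentile. Spots of a probe were averaged, and a probe was above background where most of its spots were well above it. Gene names are those in the files. All members and each gene list were chosen with earlier results of these data known. The error comes from 245 probes above background with at least 8 usable of 10 spots, in 5 bins of brightness. The steps were tested on simulated data. No test was possible, and differences were described at 1.5-fold and 2-fold. Named were the transporters above background on at least 1 array, the highest and lowest members of each companion list and those past 2-fold; Atf4, Asns, Fgf21, Gclm, Cdo1, Ctns, Tmem27 and single cell type markers were named after their values were seen. Some genes are counted but not reported here by name. Promoter windows are from RefSeq. The alternatives were normexp with an offset of 50, quantile, cyclic loess (span 0.7), centring on the median, the percentile of detected probes, the median over probes and other filters. Tools were R 4.3.3, limma 3.58.1, Python 3.11.15, numpy 2.4.6, pandas 2.3.3 and matplotlib 3.10.9.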

Additional observations from a re-analysis of the deposited data

How the results depend on the processing

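Of 32 measured transporters, 24 kept their sign under all of 9 alternatives in which they were measured. The other 8, among them Slc1a7, Slc36a1, Slc38a9, Slc38a10, Slc3a2, Slc7a4 and Slc7a5, none of them farther from 0 than -0.13, turned under at least 1. The filters changed how many genes were counted, from 32 transporters among 20328 genes in the main setting. They were 36 among 24562 with the looser background flag, 66 among 34648 with no filter, and 15 among 10164 for brighter genes only. Transporters at least 2-fold higher numbered 1 with normexp and 0 among brighter genes only. Those 2-fold lower numbered 1 with the looser background flag and 2 with no background filter. Those 1.5-fold higher numbered 6 with no filter and 0 among brighter genes. Those 1.5-fold lower numbered 0 with normexp and among brighter genes, 1 with quantile, loess and median centring, and 5 with no filter. The median was 0.0538 with loess, 0.11 with no filter and 0.0574 among brighter genes. Among companion lists, genes at least 1.5-fold apart in the glutathione list numbered 1 with normexp and with the percentile of detected probes, and 0 among brighter genes. In the list of other carriers they numbered 1 with normexp and among brighter genes, and 5 with loess. In the amino acid response list they numbered 3 among brighter genes. The median of the amino acid response list was -0.0667 among brighter genes, and that of other carriers 0.1400 with loess and 0.1961 among brighter genes. Over all genes, 170 were at least 2-fold higher and 37 lower with normexp, 744 and 553 with the looser flag, 1358 and 1174 with no filter, and 94 and 15 among brighter genes, against 296 and 116 as reported. At 1.5-fold the counts were 451 and 198 with normexp, 1623 and 1526 with the looser flag, 2551 and 2459 with no filter, and 220 and 75 among brighter genes, against 729 and 545. A filter sets which genes are counted, and the cause of the other changes was not tested. No paired analysis was possible because each group has 1 array.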
